A study of Mus musculus with 6 samples.

Results

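The genes described here are the subunits of the transcription factor NF-kappaB and inhibitors and regulators of it, some of which NF-kappaB itself induces, 10 genes by name. They are Nfkb1, Nfkb2, Rel, Rela and Relb for the subunits, and Nfkbia, Nfkbib, Nfkbie, Tnfaip3 and Bcl3 for the inhibitors and regulators. Members were taken by gene symbol from the probe sets with a single gene name, which left 9 of the 19936 genes measured. Each of the 9 had 1 probe set, and Nfkb1 was not analysed here because no probe set carried its name. The study held 3 RNA samples of HA-Fbxl10 cells, a Tet-off mouse embryonic fibroblast (MEF) line that had received an HA-tagged Fbxl10 cDNA and a hygromycin resistance plasmid, after which expressing clones, their number not given, were selected. The controls were 3 RNA samples of untransfected cells of the same Tet-off line. A Tet-off line carries a tetracycline-controlled transactivator, so both groups had it. RNA was hybridised to Affymetrix arrays. Fbxl10, now named Kdm2b, encodes a JmjC-domain histone demethylase that binds CpG-rich DNA.

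NF-kappaB works as a dimer of Rel-family subunits. Nfkb2 encodes a precursor that is cut to p52, Rela encodes p65, Rel encodes c-Rel, and Relb is the usual partner of p52 in the non-canonical pathway. IkappaB proteins, encoded by Nfkbia, Nfkbib and Nfkbie, hold the dimers inactive in the cytoplasm until the IKK kinase marks them for destruction. Active NF-kappaB then switches on chemokine, cytokine and survival genes, and also genes of its own subunits and inhibitors, which closes a feedback loop. In fibroblasts the pathway is known for the response to tumour necrosis factor, interleukin-1 and Toll-like receptor ligands. No stimulus is named in the labels of either group.

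The introduced gene was checked first. Kdm2b had a log2 level of 9.70 ± 0.10 in HA-Fbxl10 cells and 7.37 ± 0.08 in control cells (SD, n = 3 each), a log2 difference of 2.33 ± 0.08 (SE, limma adjusted p = 3.31e-07). No samples with an empty vector were analysed here, so effects of transfection, of clone selection and of Fbxl10 cannot be told apart for any gene below. The labels do not say whether the samples of a group stem from separate clones or cultures, and the spread behind every p-value may therefore be technical. In bulk RNA, fewer cells that express a gene and less RNA of it per cell cannot be told apart either. All levels are log2 values of the authors' RMA processing. A value is specific to its probe set, so levels were compared between groups and never between genes. Array medians lay between 4.69 and 4.79, and precision is limited by having 3 arrays in each group. The fibroblast label held for Vim and the collagen gene Col1a2, which had the highest mean levels of 13 fibroblast markers. Vim was at 12.90 in HA-Fbxl10 cells and 12.88 in control cells, and Col1a2 at 12.49 in HA-Fbxl10 cells and 12.56 in control cells. Of these markers 3 were lower in HA-Fbxl10 cells, namely Col3a1, S100a4 and Pdgfra, the last of which lost its call without replicate 1 of either group, control replicate 3 or HA-Fbxl10 replicate 2. The fibroblast markers Lum, Dcn and Thy1 had levels below the median of all genes (5.36) in both groups, with Lum at 2.80 in HA-Fbxl10 cells and 2.83 in control cells.

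Of the 9 genes, 5 fell in HA-Fbxl10 cells, 0 rose and 4 did not pass the limma test at an adjusted p of 0.05, with 0 higher at an unadjusted p under 0.05. The genes that fell were the subunit genes Nfkb2, Relb and Rel and the inhibitor genes Nfkbie and Nfkbia. Rela, Nfkbib, Tnfaip3 and Bcl3 did not pass. Among all 19936 genes, 10.6% were called lower in HA-Fbxl10 cells by the same rule and 10.5% higher. All 9 genes lay above the median level, and among the 9968 genes above it 17.8% were called lower. The median log2 fold change of the 9 genes was -0.30, against -0.00427 over all genes. For 6 of the 9 genes every HA-Fbxl10 array lay below every control array, as was so for 18.1% of all genes and 27.9% of those above the median level. The members were chosen with earlier results of these data known, so these counts are descriptive and not separate evidence. No exact test over 3 arrays against 3 can go below p = 0.1, so the p-values given here come from the limma fit over all genes, with Benjamini-Hochberg adjustment.

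**Figure D1:**
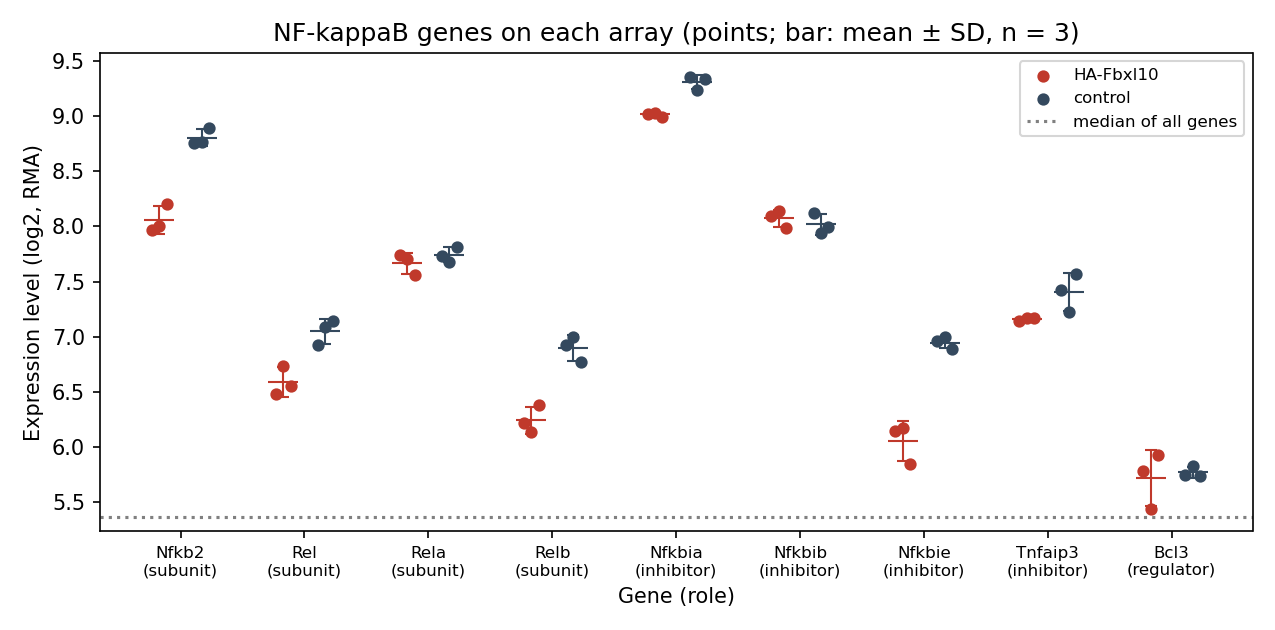
Log2 expression level (vertical axis) of 9 NF-kappaB genes (horizontal axis, with their role) on each array. Points are arrays, red for HA-Fbxl10 and dark blue for control, bars are mean ± SD (n = 3), and the dotted line is the median of all genes. The points of Nfkb2, Rel, Relb, Nfkbia and Nfkbie separate by group with HA-Fbxl10 lower, those of Tnfaip3 separate by a log2 gap of 0.054, and those of Rela, Nfkbib and Bcl3 overlap.

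Among the subunits, Nfkb2 had log2 levels of 7.97, 8.01 and 8.21 on the HA-Fbxl10 arrays, against 8.76, 8.76 and 8.89 on the control arrays. Every HA-Fbxl10 array lay below every control array, with a gap of 0.55 between the groups. The log2 fold change was -0.74 ± 0.08 (SE, adjusted p = 0.000261), which makes the transcript 1.68-fold lower. Relb, whose product pairs with p52, had levels of 6.21, 6.14 and 6.38 in HA-Fbxl10 cells, against 6.92, 6.999 and 6.77 in control cells. These groups did not overlap either, and Relb was 1.57-fold lower with a log2 fold change of -0.65 ± 0.09 (SE, adjusted p = 0.000749). The 95% intervals for this non-canonical pair were -0.93 to -0.56 for Nfkb2 and -0.85 to -0.46 for Relb.

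Rel, which encodes c-Rel and is best known from lymphoid cells, had levels of 6.48, 6.74 and 6.55 in HA-Fbxl10 cells, against 6.92, 7.08 and 7.14 in control cells. The groups stayed apart by 0.18, less than for Nfkb2 or Relb. Its log2 fold change was -0.46 ± 0.09 (SE, adjusted p = 0.00511), a transcript 1.37-fold lower. Rela, the p65 subunit of the canonical dimer, had levels of 7.74, 7.70 and 7.56 in HA-Fbxl10 cells, against 7.73, 7.68 and 7.82 in control cells. The ranges overlapped, and the log2 fold change of -0.08 had a 95% interval of -0.24 to 0.09 (adjusted p = 0.553). That interval lies wholly above those of Nfkb2, Relb and Rel (upper bound -0.26), although a difference between the changes of separate genes was not tested.

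Among the inhibitors, Nfkbie, the IkappaB-epsilon gene, had the largest change of the 9 genes. Its log2 levels were 6.14, 6.17 and 5.84 in HA-Fbxl10 cells, against 6.96, 6.99 and 6.89 in control cells. The groups lay 0.72 apart, and the third HA-Fbxl10 array was lower than the other two. The log2 fold change was -0.89 ± 0.09 (SE, adjusted p = 0.000189), a transcript 1.86-fold lower. Nfkbia, the gene of the main IkappaB-alpha inhibitor and an early NF-kappaB target, had levels of 9.02, 9.03 and 8.99 in HA-Fbxl10 cells, against 9.36, 9.24 and 9.34 in control cells. All HA-Fbxl10 arrays lay below all control arrays, although the change was small, 1.23-fold lower, with a log2 fold change of -0.30 ± 0.06 (SE, adjusted p = 0.00907). Nfkbib, the IkappaB-beta gene, had levels of 8.09, 8.14 and 7.99 in HA-Fbxl10 cells, against 8.12, 7.94 and 7.99 in control cells. These ranges overlapped, and the log2 fold change of 0.05 had a 95% interval of -0.11 to 0.22 (adjusted p = 0.703).

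Tnfaip3 encodes A20, a ubiquitin-editing enzyme that shuts the pathway off upstream of IKK. Its levels were 7.14, 7.17 and 7.17 in HA-Fbxl10 cells, against 7.43, 7.22 and 7.56 in control cells. The groups were separated by 0.054, with control replicate 2 closest to the HA-Fbxl10 arrays. The log2 fold change was -0.24 ± 0.09 (SE, adjusted p = 0.0814), with a 95% interval of -0.44 to -0.05 before adjustment. Without control replicate 2 the log2 fold change was -0.33 and Tnfaip3 passed, with an adjusted p of 0.0169. A variance prior that follows the level also brought the adjusted p to 0.0449 (0.0458 with robust estimation), and the adjusted p ran from 0.0169 to 0.369 over all alternatives. Bcl3, an IkappaB-like nuclear protein gene whose product works with p50 and p52 dimers, had levels of 5.78, 5.43 and 5.93 in HA-Fbxl10 cells, against 5.74, 5.83 and 5.73 in control cells. Replicate 2 of the HA-Fbxl10 cells was the lowest of the 6, and the log2 fold change of -0.05 had a 95% interval of -0.31 to 0.21 (adjusted p = 0.821). Its sign was not settled, since it was 0.0887 without HA-Fbxl10 replicate 2, 0.0253 with quantile normalisation and 0.00214 with array medians subtracted.

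Each gene was also set against its neighbours on the chromosome, since around some genes, such as Rela, the neighbours had a median log2 fold change away from 0. Whether changes shifted together along the genome was not tested. Around Nfkbie on chromosome 17 the 31 nearest genes above the median level had a median log2 fold change of 0.10, opposite in sign to that of Nfkbie. The medians were -0.11 around Nfkb2 on chromosome 19, -0.05 around Rel on chromosome 11, -0.00564 around Relb on chromosome 7 and 0.00269 around Nfkbia on chromosome 12. A running median was then removed from genes above the median level (dimmer genes kept their values). It was taken over 31 such genes in chromosome order, the gene itself included, so it can differ from the medians above. All 5 calls stayed, with log2 fold changes of -1.04 for Nfkbie, -0.63 for Nfkb2, -0.67 for Relb, -0.37 for Rel and -0.29 for Nfkbia. Rela also lies on chromosome 19, and its neighbours had a median of -0.24, lower than Rela itself. With the running median removed the log2 fold change of Rela became 0.16 (adjusted p = 0.182), and that of Tnfaip3 became -0.14 (adjusted p = 0.369). Relb and Bcl3 share a stretch of chromosome 7 with 8 measured genes between their starts, and of the pair Relb fell while Bcl3 did not pass the test.

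**Figure D2:**
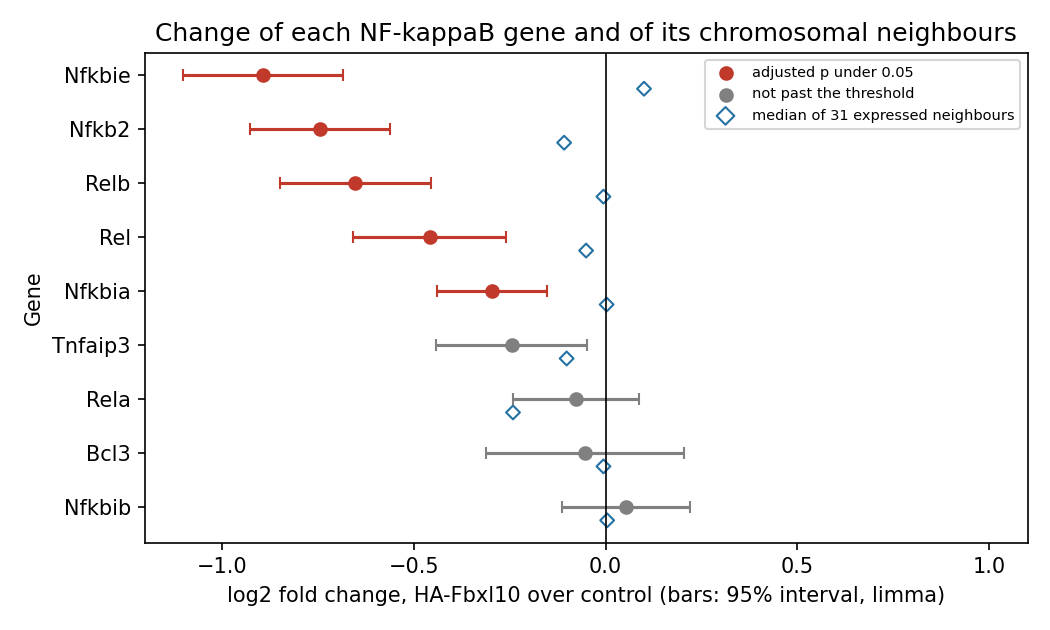
Log2 fold change of HA-Fbxl10 over control (horizontal axis) for each gene (vertical axis), with 95% intervals from limma. Red marks an adjusted p under 0.05, grey a gene that missed it, and open diamonds the median of the 31 nearest genes above the median level. The 5 red intervals lie below 0 and below their diamonds, while the diamond of Rela, at -0.24, lies left of its point at -0.08.

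Promoter sequences are shown because NF-kappaB is known to regulate several of these genes through kappaB sites near their starts. The kappaB consensus is a 10-base element that opens with guanines, goes on with a purine, any base, an A or T and pyrimidines, and closes with cytosines. It was searched on both strands in RefSeq windows of 300 bases around annotated starts (GRCm38.p6), 250 before and 50 after. Of the 10 genes, 8 had a window, and the 2 without one, Nfkb1 and Relb, are named only. A match was present for 6 of these 8 genes, Nfkb2, Rel, Nfkbia, Nfkbie, Tnfaip3 and Bcl3, and was not found for Rela or Nfkbib. Among 27025 genes with a window, 5.14% had a match. The members were chosen as NF-kappaB genes, several of them known for kappaB sites. A high share was thus built into the choice, and the contrast with all genes is descriptive only. The 6 shown are the 4 called genes with a window, Rela as a gene with no match, and Bcl3 as a gene with a match and no call. They are the windows chr19:46304487-46304786 (plus strand, 1 of 3 starts of Nfkb2), chr11:23770920-23771219 (minus strand, Rel), chr12:55492598-55492897 (minus strand, Nfkbia), chr17:45555450-45555749 (plus strand, Nfkbie), chr19:5637291-5637590 (plus strand, Rela) and chr7:19822706-19823005 (minus strand, Bcl3). Each is written 5′ to 3′ on the strand of its gene, with matches in capitals.
Nfkb2: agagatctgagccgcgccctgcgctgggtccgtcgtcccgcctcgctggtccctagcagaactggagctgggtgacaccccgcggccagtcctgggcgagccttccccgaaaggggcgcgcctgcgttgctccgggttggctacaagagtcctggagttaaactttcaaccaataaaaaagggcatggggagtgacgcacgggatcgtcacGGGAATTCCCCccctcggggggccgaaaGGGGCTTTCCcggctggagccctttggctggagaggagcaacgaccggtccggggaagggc
Rel: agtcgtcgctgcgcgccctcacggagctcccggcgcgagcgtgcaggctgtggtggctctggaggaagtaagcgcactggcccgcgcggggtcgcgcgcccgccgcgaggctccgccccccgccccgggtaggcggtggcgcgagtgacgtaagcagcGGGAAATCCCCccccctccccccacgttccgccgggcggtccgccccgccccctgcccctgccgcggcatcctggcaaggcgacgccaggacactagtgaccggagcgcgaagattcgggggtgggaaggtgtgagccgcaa
Nfkbia: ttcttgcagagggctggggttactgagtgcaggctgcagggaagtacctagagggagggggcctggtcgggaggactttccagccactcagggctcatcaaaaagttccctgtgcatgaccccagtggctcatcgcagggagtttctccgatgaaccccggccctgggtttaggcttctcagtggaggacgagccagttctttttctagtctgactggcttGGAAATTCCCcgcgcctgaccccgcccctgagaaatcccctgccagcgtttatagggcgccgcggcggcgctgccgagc
Nfkbie: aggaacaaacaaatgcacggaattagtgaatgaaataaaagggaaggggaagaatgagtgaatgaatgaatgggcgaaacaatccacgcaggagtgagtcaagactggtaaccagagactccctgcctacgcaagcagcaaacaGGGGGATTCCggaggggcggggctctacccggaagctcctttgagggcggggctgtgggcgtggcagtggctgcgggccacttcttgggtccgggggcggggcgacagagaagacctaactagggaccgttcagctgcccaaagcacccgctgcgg
Rela: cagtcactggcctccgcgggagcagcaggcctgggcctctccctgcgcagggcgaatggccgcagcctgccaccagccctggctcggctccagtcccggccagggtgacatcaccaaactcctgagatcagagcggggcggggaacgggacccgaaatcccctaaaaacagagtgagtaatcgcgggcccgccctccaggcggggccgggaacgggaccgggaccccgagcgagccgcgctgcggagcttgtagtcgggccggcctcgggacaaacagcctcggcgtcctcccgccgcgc
Bcl3: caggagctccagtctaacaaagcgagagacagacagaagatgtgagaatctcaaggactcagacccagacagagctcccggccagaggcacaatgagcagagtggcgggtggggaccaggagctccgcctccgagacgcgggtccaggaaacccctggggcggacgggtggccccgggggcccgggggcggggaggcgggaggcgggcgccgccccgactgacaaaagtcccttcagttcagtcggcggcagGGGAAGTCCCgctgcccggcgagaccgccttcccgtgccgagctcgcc

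With the start base counted as 0, the Nfkb2 window held overlapping matches from -39 to -29 and another from -11 to -2. Overlapping matches in the Rel window, GGGAAATCCC and GGAAATCCCC, spanned -92 to -82. The Nfkbia match, GGAAATTCCC, ran from -29 to -20, and the Nfkbie match, GGGGGATTCC, from -106 to -97. Of the genes that did not pass the test, Bcl3 had GGGAAGTCCC from 2 to 11. The first window of Tnfaip3 had GGGACACCCC from -125 to -116 and GGAAATCCCC from -12 to -3. A second window of Tnfaip3 held 0 matches, while the other windows of Nfkb2 held matches. At least 1 window with a match was thus present for 4 of 4 called genes that had a window. The same was so for 2 of 4 genes that were not called. These are matches of letters only, and binding was not measured in these samples.

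**Figure D3:**
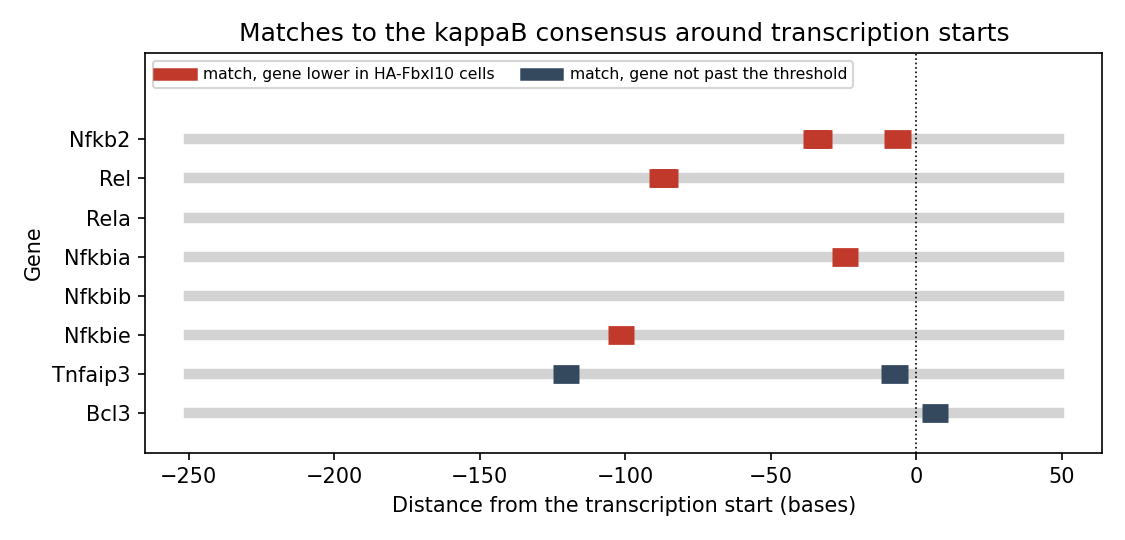
Matches to the kappaB consensus (coloured blocks) by distance in bases from the transcription start (horizontal axis, dotted line at the start) for 8 genes (vertical axis, 1 window each). Red blocks belong to genes lower in HA-Fbxl10 cells and dark blue blocks to genes that did not pass the test. Nfkb2, Rel, Nfkbia, Nfkbie, Tnfaip3 and Bcl3 hold matches, and the bars of Rela and Nfkbib are empty.

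The rest of the pathway was followed from the outside of the cell inwards. The counts in each list are to be read against 10.6% of all genes called lower and 10.5% called higher. Among genes above the median level 17.8% were called lower. The share called higher among those genes is not given here, so counts of genes that rose have no reference at a like level. Differences between lists were not tested. Ligand genes numbered 13, of which 2 fell and 1 rose, with a median log2 fold change of 0.00793. Il18 and Il33, cytokines of the interleukin-1 family, had log2 fold changes of -0.78 and -0.27, and the ectodysplasin gene Eda rose by 0.45. Of the 13, 11 were not above the median level of all genes, Il18 and Il33 among them, so their sizes are uncertain. Il33 lost its call without replicate 1 or 3 of either group, with quantile normalisation, with array medians subtracted and with the replicate number as a block. Its adjusted p was up to 0.129 over all alternatives. Of 16 receptor genes, 4 fell and 2 rose, with a median of -0.06. Eda2r, a receptor of the TNF receptor superfamily, fell by 0.74, the Toll-like receptor gene Tlr2 fell by 0.70 and Tnfrsf9, which encodes 4-1BB, fell by 0.56. The levels of Eda2r and Tnfrsf9 lay below the median of all genes in both groups. Tnfrsf12a, the TWEAK receptor gene, rose by 0.33 and Il1rap, the shared interleukin-1 receptor subunit gene, by 0.45. The count of receptors that fell was 2 without any 1 control array or without HA-Fbxl10 replicate 2. The count that rose was 1 without control replicate 2 or without any 1 HA-Fbxl10 array. Tnfrsf9 lost its call without any 1 array except HA-Fbxl10 replicate 1 (adjusted p of up to 0.0931). Il1rap lost its call without control replicate 2 or HA-Fbxl10 replicate 1 or 2, and with the replicate number as a block. Tnfrsf12a lost its call without HA-Fbxl10 replicate 3 (adjusted p = 0.0536). With the neighbours' running median removed the log2 fold change of Tlr2 was -0.36 (adjusted p = 0.0431) and that of Il1rap 0.26 (adjusted p = 0.163).

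Among 19 adaptors and ubiquitin enzymes, 7 fell, 3 rose and 9 did not pass, with a median of -0.11. Traf5, an adaptor of TNF-family receptors, fell by 0.53 ± 0.10 (SE, adjusted p = 0.00373), and Rbck1, a subunit of the linear ubiquitin ligase complex, fell by 0.50 ± 0.07 (SE, adjusted p = 0.00102). Sharpin, Traf1 and Birc3 are named here after their values were seen. Sharpin, from the same ligase complex as Rbck1, fell by 0.45. Traf1 and Birc3, adaptor and cIAP2 genes that are themselves textbook NF-kappaB targets, had log2 fold changes of -0.46 and -0.50, with Traf1 below the median level in both groups. Neighbours of Birc3 on chromosome 9 had a median of 0.28, and with the running median removed Birc3 was lower by a log2 fold change of -0.77. Sharpin was at -0.24 on that scale. The 3 that rose were Tirap, an adaptor of Toll-like receptors (0.60), and Ube2n and Ube2v1, a pair of enzymes that builds the ubiquitin chains of the pathway (0.41 and 0.31). Tirap lost its call with the neighbours' median removed (0.26, adjusted p = 0.166). Ube2v1 lost it without control replicate 2 or HA-Fbxl10 replicate 3, with quantile normalisation and with probe sets averaged (adjusted p of up to 0.078).

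Of 14 kinase genes, 5 fell and 1 rose while 8 did not pass, with a median of -0.07. Irak2 and Irak1, kinases of the Toll-like and interleukin-1 receptors, had log2 fold changes of -0.36 ± 0.08 and -0.31 ± 0.07 (SE), and Tab3, a subunit of the TAK1 complex, fell by 0.30 ± 0.08. The level of Irak2 lay below the median of all genes in both groups, so removing the running median left its value uncorrected. Its neighbours on chromosome 6 had a median of -0.27. Ikbkb, the catalytic IKK-beta subunit gene, was the 1 that rose, by 0.30 ± 0.07 (SE, adjusted p = 0.0122). Its neighbours on chromosome 8 had a median of 0.18, and with the running median removed its log2 fold change was 0.18 (adjusted p = 0.124). The number that fell was 3 without control replicate 1 or 3 or without HA-Fbxl10 replicate 1 or 2, 2 without HA-Fbxl10 replicate 3, 2 with array medians subtracted and 3 with the running median removed. Irak1 lost its call without control replicate 1 or HA-Fbxl10 replicate 3. Tab3 lost its call without any 1 array except control replicate 1, with array medians subtracted and with the replicate number as a block. Both also lost it with the running median removed (adjusted p of 0.24 and 0.246).

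Of 20 other inhibitors, 18 of them above the median level, 4 were lower and 4 higher, with a median of -0.04, and the number lower is near the 17.8% of genes at such levels. Nfkbiz, a further nuclear IkappaB-like gene, fell by 0.66 ± 0.10 and Tnip1, whose product binds A20, fell by 0.60 ± 0.09, while Pias1, a SUMO ligase gene, rose by 0.60 ± 0.09 (SE). With the neighbours' running median removed the log2 fold changes were -0.35 for Nfkbiz, -0.51 for Tnip1 and 0.33 for Pias1, and each stayed past the threshold. The number of genes in the list that rose was 2 with that median removed, and also 2 without control replicate 1 or 2 or without HA-Fbxl10 replicate 1 or 2.

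**Figure D4:**
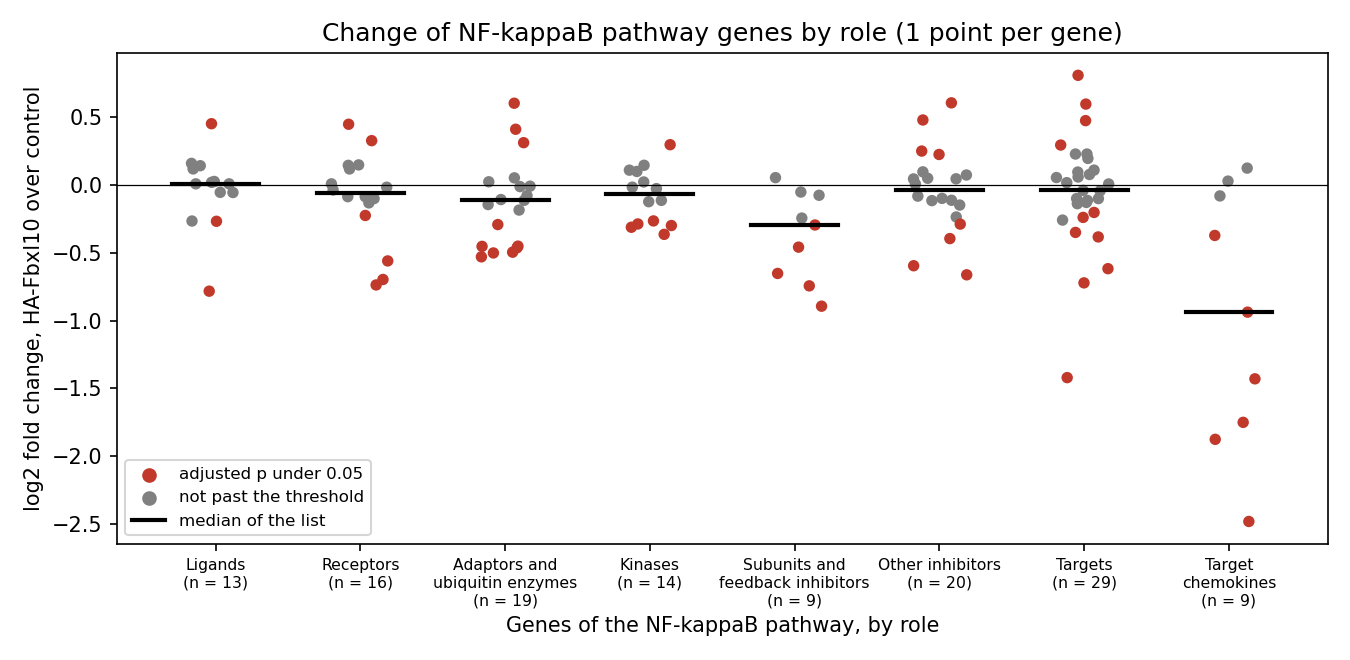
Log2 fold change of HA-Fbxl10 over control (vertical axis) for genes of the NF-kappaB pathway by role (horizontal axis, with the number measured). Each point is a gene, red at an adjusted p under 0.05 and grey otherwise, and the black line is the median of the list. The medians lie between -0.11 and 0.00793 for every role except the subunits and feedback inhibitors, at -0.30, and the target chemokines, at -0.94. All lists were chosen with earlier results of these data known.

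Downstream of the dimers, 29 target genes other than chemokines were measured. Of these, 7 fell, 4 rose and 18 did not pass, with a median of -0.04. The gelatinase gene Mmp9 was at 5.21 ± 0.13 in HA-Fbxl10 cells and 6.63 ± 0.10 in control cells (SD, n = 3 each), a log2 fold change of -1.42 ± 0.09 (SE, adjusted p = 9.91e-06). Irf1, an interferon-response transcription factor gene, fell by 0.72 ± 0.07. Ier3, an immediate early response gene, rose by 0.81 ± 0.08, and the peptide transporter gene Tap1 fell by 0.62 ± 0.07. The other 3 targets that rose were the cyclin D1 gene Ccnd1 (0.60), the anti-apoptotic gene Bcl2l1 (0.47) and Cflar, which encodes the caspase-8 inhibitor cFLIP (0.29). Cflar lost its call without control replicate 1 or HA-Fbxl10 replicate 1 or 3 and with the running median removed (adjusted p = 0.0723), and 4 targets fell rather than 7 without control replicate 2 or HA-Fbxl10 replicate 1. Of 9 chemokine targets 6 fell and 0 rose, with 0 higher at an unadjusted p under 0.05 in limma and a median of -0.94. Ccl5, Cxcl10, Ccl7 and Ccl2 had log2 fold changes of -2.48, -1.88, -1.75 and -1.43. This chemokine list was drawn up with their fall already known, so it does not stand as separate evidence on the direction of NF-kappaB targets. The members and the other lists were also chosen with earlier results of these data known, and carry the same limit.

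Markers of cells in which these genes are usually abundant were looked at beside the results. Of 12 myeloid markers, 10 were not above the median level of all genes, and the list's summed linear level was 223 to 235 in HA-Fbxl10 cells and 236 to 248 in control cells. The 2 with the highest mean levels were Cd14 (5.59 in HA-Fbxl10 cells, 6.03 in control cells) and Cd68 (5.47 in HA-Fbxl10 cells, 5.36 in control cells). Cd14 fell by 0.45 (adjusted p = 0.0357). It lost that call without replicate 1 or 3 of either group, with quantile normalisation and with the replicate number as a block. The call was also lost with the running median removed (adjusted p = 0.0715). With that median removed Cd68 was higher by 0.26 (adjusted p = 0.0254). None of 9 T and B cell markers was above the median level, with summed levels of 139 to 157 in HA-Fbxl10 cells and 135 to 147 in control cells. The limma count was 0, and 1 had an unadjusted p under 0.05. The highest mean levels were those of Cd79b and Cd3e, at 5.07 and 4.81 in HA-Fbxl10 cells and 4.97 and 4.68 in control cells. Of 9 endothelial markers 0 were above the median level. Kdr rose by 0.51, and the list's summed level was 147 to 154 in HA-Fbxl10 cells and 145 to 154 in control cells. Vwf and Tie1, the 2 with the highest mean levels, had log2 fold changes of 0.04 and -0.00792 and did not pass. Of 8 epithelial markers Krt19 rose by 0.71 and 7 did not pass, with a median log2 fold change of -0.01. Krt8, next to Krt19 in mean level, had a log2 fold change of -0.15 (limma adjusted p = 0.404). The summed level was 1092 to 1146 in HA-Fbxl10 cells and 730 to 823 in control cells. Such a sum is weighted to the brightest marker, here Krt19 (9.79 in HA-Fbxl10 cells, 9.07 in control cells), and does not show a rise of the list. RMA values have no zero, so a marker without transcript cannot be told from a dim one, and the part of any of these cell types in the changes of the NF-kappaB genes was not tested.

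Nfkbie, the gene of the 9 with the smallest p, was also compared with every other gene for likeness of pattern. Over the 6 arrays the highest Pearson correlations with it were those of Ndufv1 (0.9992), Xbp1 (0.9983) and Exoc7 (0.9981), which had log2 fold changes of -0.52, -0.52 and -0.49. With 6 arrays in 2 groups such values follow mostly from the difference between the groups, and 702 genes exceeded 0.95.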

How the data were processed

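Deposited values are on a log2 scale, 1 per probe set and array, and the authors used RMA, according to the submitters' processing notes. RMA corrects background, normalises by quantiles, summarises probes and compresses low values (the sources used here do not give its version). Of 35556 probe sets, 21789 had 1 gene name in the platform annotation, 1621 had several and 12146 are unnamed here. Symbols were updated by Entrez identifier (21698) or accession (3) to RefSeq names of GRCm38.p6, and 88 were kept. The probe set with the highest mean was used for the 1001 genes with several, which gave 19936 genes with no filter on dim ones. The 2 groups entered a linear model per gene in limma 3.58.1 (R 4.3.3, moderated two-sided test, Benjamini-Hochberg over all genes, threshold 0.05). Each log2 fold change is the HA-Fbxl10 mean minus the control mean, and its SE is moderated.

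The members and lists were chosen with earlier results of these data known. Named were Kdm2b, all members, the 3 largest called changes of each list (4 for targets), called genes against their list's majority, the 2 markers of highest mean per marker list and the 3 genes most like the member of smallest p. List genes outside this rule are Sharpin, Traf1 and Birc3, and called or dim markers. Same-numbered arrays did not deviate together (correlations of 0.0851, -0.283 and -0.0934). With 3 arrays in each group this check cannot exclude that the numbers pair the samples, so a replicate block was kept as an alternative. Alternatives were quantile normalisation, array medians subtracted, the dimmest 30% left out, probe sets averaged, variance trends, array weights, a replicate block, each array left out, an adjusted p of 0.01 and the running median of 31 neighbours removed from genes above the median level. In a simulation of HA-Fbxl10 against control (19936 genes, 200 of the brighter ones changed) the test recovered 60% of log2 changes of 0.5 and 100% of changes of 1, with 4 false calls. It changed far fewer genes than the 4208 called in the data and drew noise independently for each gene. Its rates therefore need not hold for these data. Figures were drawn with matplotlib 3.10.9.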

Additional observations from a re-analysis of the deposited data

How the results depend on the processing

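Over the 15 refits, the 5 calls among the NF-kappaB genes kept their direction and stayed past the threshold in 75 of 75 values, with a highest adjusted p of 0.0454, for Nfkbia with array medians subtracted. Some refits could not move a member's log2 fold change, namely probe sets averaged (each member has 1), dim genes left out, the variance trends and the replicate block. In these only the p-values could move. The number of these genes lower was 5 or 6 and the number higher 0 under every alternative, an adjusted p of 0.01 included. Bcl3 changed sign with quantile normalisation (0.0253) and array medians subtracted (0.00214), and without single arrays it ran from -0.16 to 0.0887. Rela became 0.165 with the running median of neighbours removed. Over all genes, 4208 were called, 2536 at an adjusted p of 0.01, 3065 with the running median removed (genes at or below the median level were left uncorrected) and 3208 to 3853 without single arrays. More were called with a variance trend (5032), the dimmest 30% left out (4642), quantile normalisation (4508) and array weights (4463). With the replicate number as a block, 3397 genes and the same count of 5 NF-kappaB genes were called, while 2 other inhibitors and 1 receptor were higher and 1 ligand and 0 myeloid markers (Cd14 included) were lower. Of 384 list counts under alternatives, 56 moved by over 1.5 times or to or from 0, 50 of them to smaller and 6 to larger counts. For a count of 1, a change of 1 gene is enough for such a move. The cause of these moves was not tested. A change of the size of that of Nfkbia lies below the smallest size simulated, so recovery at that size was not checked.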
